A study of Homo sapiens and Mus musculus with 18 samples.

Results

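The genes described here encode the nuclear part of mitochondrial Complex I and the factors that assemble it. They were taken as every protein-coding gene of the 2 gene count tables whose GENCODE symbol, looked up by its Ensembl identifier, starts with NDUF in human or Nduf in mouse. This gave 48 genes in human and 48 in mouse, 96 of the 74630 genes listed in both tables, and no measured value entered the choice. In each species 40 of them were subunits (symbols NDUFA, NDUFAB1, NDUFB, NDUFC, NDUFS and NDUFV) and 8 were assembly factors (NDUFAF1 to NDUFAF8). The study sequenced poly(A) RNA from pluripotent cells and from gastruloids, which are aggregates of pluripotent cells that form germ layers and an axis in culture, with 18 libraries in 9 groups of 2 replicates. The human groups were naive H9 embryonic stem cells, primed H9 cells, primed RUES2-GLR cells (a RUES2 line with germ-layer reporters), and RA-gastruloids. These were grown from RUES2-GLR cells pretreated with the GSK3 inhibitor CHIR and retinoic acid. They were sampled at 24 h (early) and 120 h (late). Matrigel and further retinoic acid were added between those times, so only the late group had received them. Naive H9 cells were kept in PXGL medium, which holds inhibitors and LIF, and primed cells in StemFlex, so state and medium change together. The mouse groups were E14 naive embryonic stem cells kept in 2i/LIF, epiblast-like cells (EpiLCs) made from them, and gastruloids given a pulse of CHIR and sampled on day 3 (early) and day 6 (late). The naive H9 cells were reset chemically from primed H9 and were expanded on mouse fibroblast feeders that were removed before collection, and every group came from a single established cell line, so a difference between primed H9 and RUES2-GLR is also a difference between lines. The replicates of a group were, per the study's methods, biological duplicates collected in the same batch, so p-values measure the spread within a batch.

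Complex I (NADH:ubiquinone oxidoreductase) takes electrons from NADH, passes them through a flavin and a chain of iron-sulphur clusters to ubiquinone, and pumps protons out of the mitochondrial matrix. Its catalytic core is split between nuclear genes, such as NDUFS1, NDUFS7 and NDUFV1, which build the matrix arm, and mitochondrial genes (MT-ND1 to MT-ND6 and MT-ND4L), which build the membrane arm, and it is surrounded by accessory subunits that stabilise it. Assembly factors help to build and modify the enzyme and are not part of the finished complex. A few of the symbols differ in kind from the rest. NDUFA4 is now placed with cytochrome c oxidase, NDUFA4L2 is a paralogue of NDUFA4 known as a target of hypoxia-inducible factor (HIF), NDUFAB1 is the mitochondrial acyl carrier protein, and NDUFC2-KCTD14 is a read-through of NDUFC2 into its neighbour.

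Nuclear genes of the respiratory chain are known targets of NRF1, so human members were searched for its core letters in the 250 bases before the annotated start. RefSeq (GRCh38.p14) gave such a window for 40 of the 48 human members. The letters TGCGCA, read on both strands, stood in 9 of the 40 members (22.5%) and in 7.05% of the windows of all 27305 symbols. The 4 windows printed here run 5′ to 3′ on the strand of the gene, show TGCGCA in capitals, and stand for members with the motif that moved either way and for the core gene that moved most. NDUFS7 (chr19:1383657-1383906, plus strand, core subunit) and NDUFA12 (chr12:95003698-95003947, minus strand, accessory subunit) hold the motif 183 and 117 bases before the start and had lower transcript levels in primed than in naive H9. NDUFB4 (chr3:120596086-120596335, plus strand) holds it 154 bases before the start and was the subunit gene that rose between the same states. NDUFV1 (chr11:67606686-67606935, plus strand) has no copy in its window and showed the largest fall of a core subunit.
NDUFS7: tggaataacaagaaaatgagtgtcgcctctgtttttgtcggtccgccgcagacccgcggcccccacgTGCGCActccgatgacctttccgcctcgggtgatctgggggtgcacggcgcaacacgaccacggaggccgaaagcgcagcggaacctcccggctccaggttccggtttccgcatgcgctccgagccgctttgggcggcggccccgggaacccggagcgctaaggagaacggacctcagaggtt
NDUFA12: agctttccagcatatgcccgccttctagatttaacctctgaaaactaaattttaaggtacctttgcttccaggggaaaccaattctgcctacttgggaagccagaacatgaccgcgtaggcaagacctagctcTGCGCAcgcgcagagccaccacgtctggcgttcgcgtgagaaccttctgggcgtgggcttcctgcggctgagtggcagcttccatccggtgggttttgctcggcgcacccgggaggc
NDUFB4: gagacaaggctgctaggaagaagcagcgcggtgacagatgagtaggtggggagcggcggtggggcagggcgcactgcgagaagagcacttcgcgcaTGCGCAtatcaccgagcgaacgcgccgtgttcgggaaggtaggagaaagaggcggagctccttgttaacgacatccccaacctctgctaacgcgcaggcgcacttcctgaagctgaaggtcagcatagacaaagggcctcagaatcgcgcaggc
NDUFV1: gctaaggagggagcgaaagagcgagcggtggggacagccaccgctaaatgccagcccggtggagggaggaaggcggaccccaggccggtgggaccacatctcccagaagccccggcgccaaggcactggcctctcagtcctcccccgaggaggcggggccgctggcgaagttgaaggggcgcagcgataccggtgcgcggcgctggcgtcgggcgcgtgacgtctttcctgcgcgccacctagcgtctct
The 9 members with TGCGCA were subunits (NDUFA3, NDUFA6, NDUFA8, NDUFA9, NDUFA12, NDUFB4, NDUFB11, NDUFS6 and NDUFS7). Of these 8 were lower in primed than in naive H9 and 1 was higher, against 21 lower and 1 higher of the 29 tested members whose window had no copy, so both kinds of promoter went with lower transcript levels. The other motifs searched on both strands were CCGGAAG (ETS factors), AAGATGG (YY1), AAGGTCA (oestrogen-related receptors) and ACGTG (the core of the hypoxia response element). CCGGAAG stood in 6 of 40 members (15%) against 8.82% of all windows, AAGATGG in 1 (2.5%) against 3.77%, AAGGTCA in 3 (7.5%) against 3.46%, and ACGTG in 10 (25%) against 18.7%. These are matches of letters and not mapped binding sites.

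Library totals ranged from 3681739 to 38771193 counts in human (the lowest in replicate 2 of RUES2-GLR) and from 6487157 to 20052505 in mouse. RUES2-GLR stood apart in that genes of the mitochondrial genome took 21.4% and 22.4% of its counts, against 2.68% to 6.71% in the other human libraries and 1.64% to 3.65% in mouse. Markers mostly followed the labels. The summed level of the human naive list, in CPM (counts scaled to a TMM-normalised library total), was 5939 and 6422 in naive H9 and at most 9.24 elsewhere. That of the mouse naive list was 2802 and 2868 in embryonic stem cells and 64.0 and 62.8 in EpiLCs. In early mouse gastruloids the same list stood at 1093 and 1081 CPM, well above EpiLCs, beside early gastruloid markers at a summed 229 and 228 CPM. Late mouse gastruloids held cardiomyocyte markers at a summed 144 and 148 CPM (8.79 to 18.4 in the earlier groups) and fibroblast markers at 653 and 688 CPM (6.14 to 14.0 before). In bulk RNA, fewer cells of a type and less RNA per cell cannot be told apart. Counting limited a few members. NDUFA7 shares 77.9% of its canonical transcript with an overlapping gene and had 0 to 8 counts a library. NDUFC2-KCTD14 shares all of it with NDUFC2 and had 0 to 3. Neither was tested in the human comparisons and 46 human members remained, while all 48 mouse members were tested. NDUFV2 (88.4% of its transcript with a near-identical copy elsewhere, 2 to 48 counts) and NDUFA13 (83.9% shared with an overlapping gene, 2 to 265 counts) were tested on few reads. Stretches of at least 25% shared or copied bases touched 6 human and 9 mouse members in all, NDUFS7 (51.3% shared), Ndufs5 (91.0% copied), Ndufs3 (52.2% copied) and Ndufb4 (49.8% copied) among them, and their values are less certain.

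The largest departure of the set lay between the human pluripotent states. Members took 0.533% and 0.560% of all counts in naive H9 and 0.316% and 0.309% in primed H9. In the RUES2-GLR and RA-gastruloid libraries they took 0.220% to 0.266%. Of counts outside the mitochondrial genome they took 0.564% and 0.589% in naive H9 and 0.326% and 0.317% in primed H9. That share was 0.280% and 0.290% in RUES2-GLR and 0.256% to 0.279% in the RA-gastruloids. Of the 46 members tested, 35 were lower in primed than in naive H9 and 2 were higher at an adjusted p under 0.05 (edgeR's quasi-likelihood F-test, Benjamini-Hochberg adjusted over all genes tested, as for every adjusted p given), beside 37.7% lower and 37.6% higher of the 18300 genes tested. Among these, 18 members differed by more than 2-fold (differentially expressed transcripts, DETs), all of them lower, where 47.8% of all genes were DETs in either direction. The median log2 fold change was -0.96 over the 38 subunit genes and -0.56 over the 8 assembly factors, against 0.00 over all genes. In the 27 subunit genes with under 10% shared or copied bases, a subset chosen after seeing the data, 20 were lower and 1 higher with a median of -0.79. With a trend over the exon length of the gene removed 35 were lower and 5 higher (median -0.82). DESeq2 moved the median of all genes to -0.17 and that of the subunits to -1.13.

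**Figure D1:**
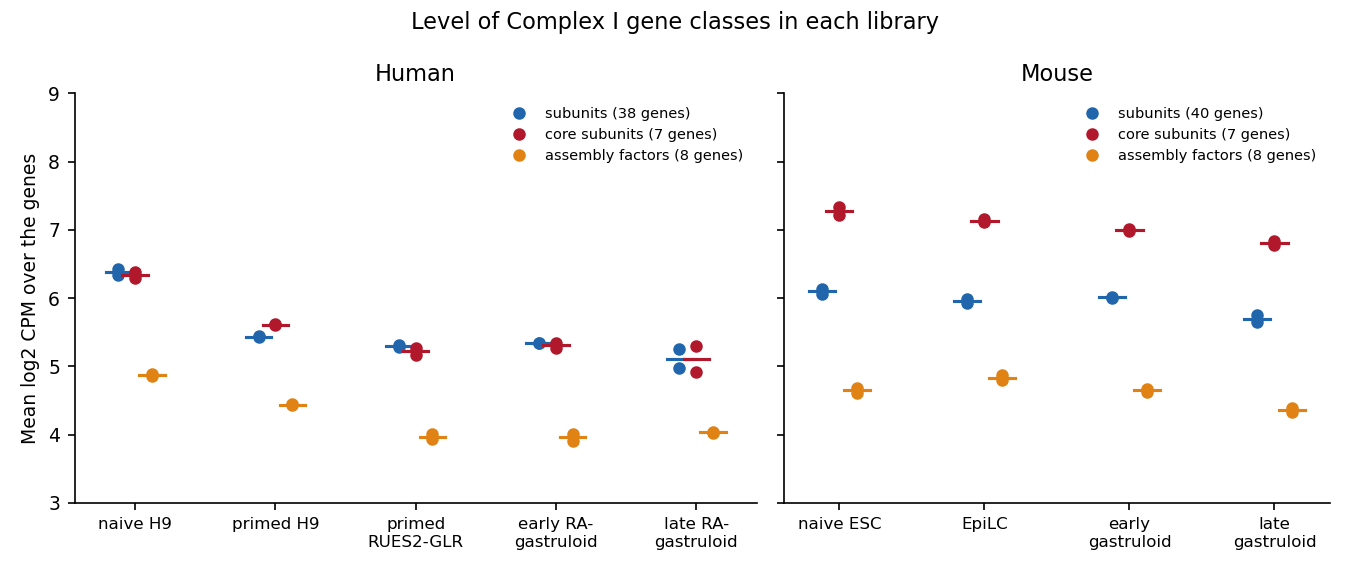
Mean log2 CPM of the subunit genes, the core subunit genes and the assembly factors in each library (dots), with the group mean as a bar, for the human and the mouse groups. In human the subunit mean stood at 6.34 and 6.42 in the naive H9 libraries and between 4.97 and 5.45 in the other 8, while in mouse it stayed between 5.93 and 6.14 until the late gastruloids at 5.65 and 5.75.

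The fall was uneven within the catalytic core. NDUFV1, which binds the flavin and NADH at the tip of the matrix arm, had 665 and 715 CPM in the naive H9 replicates and 149 and 144 in primed H9 (log2 fold change -2.24 ± 0.11 (SE), edgeR adjusted p = 1.3e-17). NDUFS7, which carries the last iron-sulphur cluster before ubiquinone, had 63.0 and 77.9 CPM in naive and 27.3 and 30.3 in primed cells (-1.28 ± 0.14 (SE), edgeR adjusted p = 1.1e-09). NDUFS3, of the ubiquinone-reducing module, fell less, from 116 and 125 to 78.4 and 77.3 CPM (-0.63 ± 0.11 (SE), edgeR adjusted p = 1.0e-05). These 3 genes were the core members called, and in each of them both naive libraries lay above both primed ones. The other core genes did not pass the test. NDUFS1, the large subunit with several iron-sulphur clusters, had 137 and 112 CPM in naive and 112 and 112 in primed H9 (-0.15 ± 0.11 (SE), edgeR adjusted p = 0.20). NDUFS8 had a log2 fold change of -0.11 and the thinly counted NDUFV2 one of -0.64. The core genes named here, whose products sit in the same arm of the enzyme, thus had log2 fold changes from -2.24 to -0.11.

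Of the 31 accessory subunit genes tested, 26 were lower in primed H9 and 1 was higher. NDUFAB1, on chromosome 16 (23581014 to 23596316, GRCh38), fell most among the well-counted members, from 462 and 531 CPM to 79.3 and 87.2 (-2.57 ± 0.11 (SE), edgeR adjusted p = 4.5e-19). Besides its place in the complex, its product carries the growing chain in mitochondrial fatty acid synthesis. NDUFA1, a small membrane-arm subunit encoded on chromosome X, had 173 and 185 CPM in naive and 42.8 and 42.7 in primed cells (-2.07 ± 0.11 (SE), edgeR adjusted p = 6.1e-17). NDUFA12, a matrix-arm subunit, had 165 and 165 CPM and then 46.8 and 44.7 (-1.85 ± 0.11 (SE), edgeR adjusted p = 5.6e-16). For each of these 3 genes the naive libraries held several times the primed level, with little spread within a state. NDUFA4L2 had the largest fitted fall, -2.90 ± 0.61 (SE), edgeR adjusted p = 8.4e-05, but on counts of 10 and 16 against 1 and 4, a ratio of 8.0 with a 95% interval of 3.02 to 26.7 that covers counting error only, as do the later intervals. The other accessory DETs were NDUFB7 (-1.81), NDUFB9 (-1.78), NDUFA9 (-1.66), NDUFB3 (-1.39), NDUFA6 (-1.34), NDUFA2 (-1.27), NDUFC2 (-1.26), NDUFA11 (-1.16), NDUFB2 (-1.14), NDUFA8 (-1.06), NDUFB8 (-1.04) and NDUFB10 (-1.02) on the log2 scale, spread over both arms of the enzyme. With the length trend removed the falls of NDUFA1, NDUFB7 and NDUFA8 were smaller (-0.88, -0.80 and -0.38) and still called. By symbol, 12 of 13 tested NDUFA genes, 9 of 11 NDUFB genes and both NDUFC genes were lower, while 4 of 8 NDUFS genes and 1 of 3 NDUFV genes were.

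A few members stood away from this. NDUFB4, a membrane-arm subunit, had 80.4 and 85.5 CPM in naive and 109.6 and 106 in primed H9 and rose (0.38 ± 0.11 (SE), edgeR adjusted p = 0.0021), a call that was lost without naive replicate 1 (0.29). NDUFA5, NDUFS4 and NDUFV3, accessory subunits of the matrix arm, lay more than 1 above the subunit median with log2 fold changes of 0.06, 0.09 and 0.14 and did not pass the test. NDUFA5 was lower with the length trend removed (-0.42). NDUFA4, listed apart above, fell by 0.47 on the log2 scale. Among the assembly factors, NDUFAF2, a paralogue of NDUFA12 that acts late in assembly, went the other way from the 6 that fell: it had 9.82 and 9.64 CPM in naive and 16.8 and 16.3 in primed cells (0.76 ± 0.14 (SE), edgeR adjusted p = 2.2e-05). NDUFAF7, a methyltransferase of the matrix, had the largest fall of an assembly factor, from 73.8 and 72.8 to 37.4 and 40.0 CPM (-0.92 ± 0.12 (SE), edgeR adjusted p = 2.1e-08), and NDUFAF6 was not called (-0.25). NDUFA12 and its paralogue NDUFAF2 therefore changed in opposite directions.

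**Figure D2:**
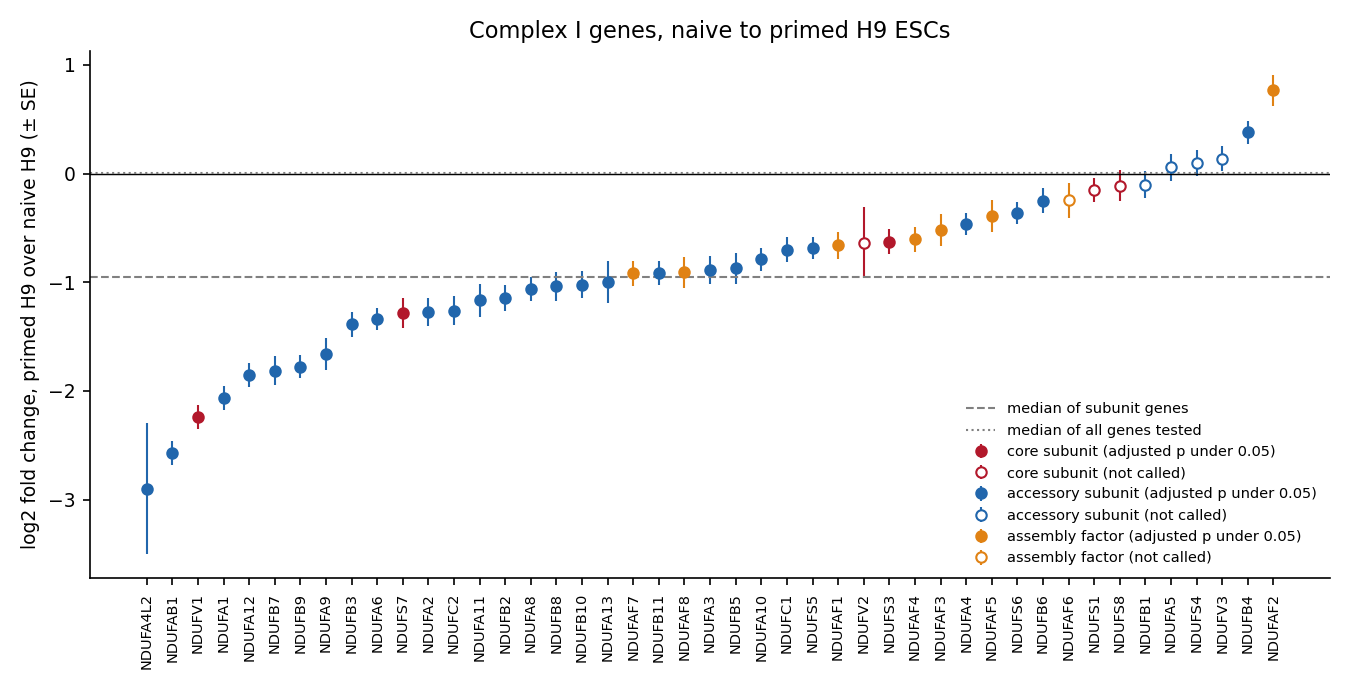
Log2 fold change from naive to primed H9 (± SE, n = 2 a group) for 45 of the 46 human members tested, ranked and coloured by class, with filled symbols for an edgeR adjusted p under 0.05 and open symbols for genes not called. The dashed line is the subunit median (-0.96) and the dotted line the median of all genes (0.00), and the called genes above 0 are NDUFB4 and NDUFAF2.

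The other Complex I genes of the same libraries moved with the set. All 7 mitochondrially encoded subunits were lower in primed than in naive H9, with a median log2 fold change of -1.73, for example MT-ND4 from 7356 and 6575 to 2227 and 1970.2 CPM. Of 13 other assembly genes (ACAD9, ECSIT, NUBPL and the like), 9 were lower and 3 higher with a median of -0.36. Complex III, Complex IV and the ATP synthase had 8 of 9, 9 of 10 and 15 of 18 tested genes lower and none higher. The fibroblast markers summed to 687 and 666 CPM in naive and 299.5 and 308 CPM in primed H9, with none of the 7 markers at or under 3 counts in naive cells and 3 of them (COL3A1, DCN and LUM) there in primed cells. The same list summed to 587 and 656 CPM in RUES2-GLR, with the same 3 markers at or under 3 counts, and to 1128 and 1065 in early RA-gastruloids. Of the human pluripotent groups, only naive H9 had none of the 7 markers at or under 3 counts. The part of these markers, and of remaining feeder cells, in the result was not tested.

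Between the primed lines the set moved less and in both directions. Of 46 members, 19 were lower and 8 higher in RUES2-GLR than in primed H9, beside 33.5% and 25.0% of all genes, and 3 were DETs (29.3% of all genes). The subunit median was -0.12, the same as that of all genes, which lay between 0.00 and 0.02 with the median-of-ratios and upper-quartile scalings. The split of the members moved with it, to 13 lower and 12 higher with median-of-ratios factors and 13 and 13 with upper-quartile factors, so the direction of the smaller changes depended on the scaling. Without replicate 1 of RUES2-GLR, which leaves the library of lowest depth in that group, 17 members were called in place of 27. The high mitochondrial share of RUES2-GLR moves with this comparison and its part was not tested.

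Single genes departed further than the set. NDUFV1 fell again, from 149 and 144 CPM in primed H9 to 64.0 and 69.5 in RUES2-GLR (-1.14 ± 0.12 (SE), edgeR adjusted p = 1.3e-09), and NDUFAF1, a member of the membrane-arm assembly complex, fell from 21.1 and 21.1 to 7.29 and 7.97 (-1.50 ± 0.17 (SE), edgeR adjusted p = 9.1e-09). NDUFA13, also known as GRIM-19, had the largest fitted fall (-1.89 ± 0.32 (SE), edgeR adjusted p = 8.4e-06) on few reads, and it was -3.08 without RUES2-GLR replicate 1. NDUFC2, a membrane-arm subunit, rose from 14.7 and 14.7 to 28.3 and 23.6 CPM (0.86 ± 0.15 (SE), edgeR adjusted p = 8.1e-06). NDUFA9, at the joint of both arms, rose from 9.37 and 10.5 to 18 and 16.6 (0.81 ± 0.17 (SE), edgeR adjusted p = 1.7e-04). For these genes the replicates of the lines did not overlap. NDUFS7 and NDUFS1 were lower in RUES2-GLR, with log2 fold changes of -0.51 and -0.29, and NDUFS3, NDUFS8 and NDUFV2 were not called. Of those falls, NDUFS1 lost its call in 10 of 11 alternatives (-0.33 to -0.10), leaving out any 1 of the 4 libraries among them. NDUFS7 lost it in 6 of 11 (-0.61 to -0.32 over all 11), with DESeq2, the median-of-ratios and upper-quartile factors, and without primed H9 replicate 2 or either RUES2-GLR replicate. Of the assembly factors, 5 of 8 were lower and NDUFAF2 was higher (0.45), the latter not called without either primed H9 replicate or RUES2-GLR replicate 1 (0.37 to 0.43). The 7 mitochondrially encoded subunits were all higher in RUES2-GLR (median 2.96), so the nuclear and the mitochondrial genes of the enzyme did not move together here. MT-ND4 had 2227 and 1970.2 CPM in primed H9 and 18247 and 18159.9 in RUES2-GLR.

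From primed RUES2-GLR to early RA-gastruloids 10 members rose and 10 fell, beside 29.7% higher and 26.1% lower of all genes, and 5 were DETs (29.6% of all genes). The subunit median was 0.01 against 0.08 over all genes, and the split was 7 higher and 14 lower with median-of-ratios factors and 7 and 18 with upper-quartile factors. NDUFV1 returned to 147 and 132 CPM from 64.0 and 69.5 (1.07 ± 0.12 (SE), edgeR adjusted p = 5.8e-09), close to its values in primed H9. NDUFA3, a small membrane-arm subunit, fell from 68.6 and 79.7 to 30.1 and 26.0 CPM (-1.38 ± 0.15 (SE), edgeR adjusted p = 2.8e-09). NDUFA9 fell from 18 and 16.6 to 9.22 and 6.16 (-1.18 ± 0.19 (SE), edgeR adjusted p = 4.7e-06) and NDUFC2 from 28.3 and 23.6 to 11.4 and 14.4 (-1.05 ± 0.16 (SE), edgeR adjusted p = 1.6e-06). NDUFV1, NDUFA9 and NDUFC2 had all differed between primed H9 and RUES2-GLR in the opposite direction, and since both comparisons share the RUES2-GLR libraries, the RUES2-GLR values enter both. Among core genes NDUFS8 fell by 0.62 on the log2 scale, and NDUFV2 (-1.18) did not pass the test. NDUFAF1 and NDUFAF3 rose (0.62 and 0.43), NDUFAF7 fell (-0.51), and 7 of 7 mitochondrial subunits were lower (median -2.53). Without RUES2-GLR replicate 1 the calls of NDUFAF1 (0.44) and NDUFAF7 were lost, and that of NDUFAF7 also without early replicate 1.

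NDUFA4L2, on the minus strand of chromosome 12 (57234903 to 57240715, GRCh38), was the member with the largest rise and the largest fall in human. It had 0.523 and 0.918 CPM in naive H9, 0.0699 and 0.0953 in primed H9 and 0.246 and 0.637 in RUES2-GLR. In early RA-gastruloids it had 18 and 22.6 CPM, and in late ones 0.242 and 0.102. The early libraries held 187 and 224 counts, the RUES2-GLR libraries 3 and 2, the late ones 5 and 1, and the naive H9 libraries 10 and 16. The early group did not overlap with any other, and most of the RUES2-GLR, primed H9 and late libraries lay at or near the floor of 3 counts. The early level was 62.1 times that of RUES2-GLR (95% counting interval 26.4 to 192) and 103 times that of late RA-gastruloids (46.7 to 281), with fitted log2 fold changes of 5.92 ± 0.40 (SE), edgeR adjusted p = 5.1e-14, into the early stage, and -6.63 ± 0.35 (SE), edgeR adjusted p = 2.2e-16, out of it. Without RUES2-GLR replicate 1 the fitted rise was 4.89 and still called. Its paralogue NDUFA4 showed nothing of this size, with 249.8 and 251 CPM in RUES2-GLR, 196 and 186 at the early stage and 192 and 166 at the late stage (-0.39 and -0.09 on the log2 scale). Of 12 other HIF target genes, 9 rose and 2 fell into the early stage (median log2 fold change 1.02), led by NDRG1 at 4.82, and 11 fell and none rose from early to late (median -2.68), led by ADM at -5.64. ADM, however, had already fallen into the early stage (-1.34), and 11 of the 12 were higher in RUES2-GLR than in primed H9 (median 1.26), where NDUFA4L2 did not pass the test (1.80 ± 0.94 (SE), edgeR adjusted p = 0.1).

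**Figure D3:**
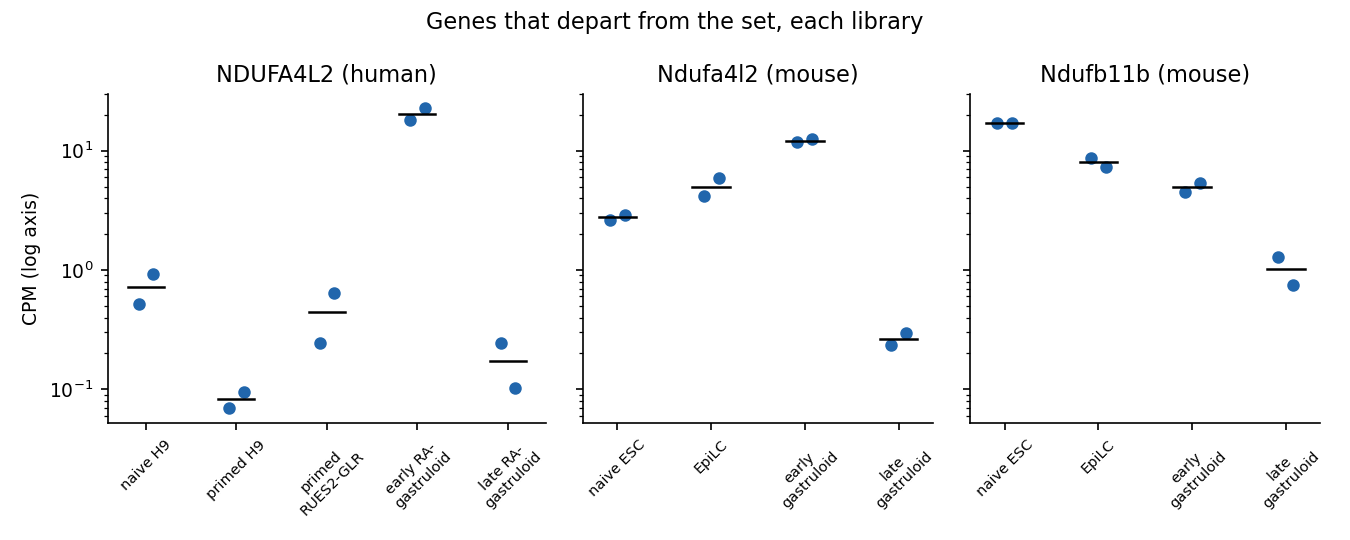
CPM on a log axis of NDUFA4L2 in the 10 human libraries and of Ndufa4l2 and Ndufb11b in the 8 mouse libraries (1 dot a library). NDUFA4L2 stands at 18 and 22.6 CPM in early RA-gastruloids and under 1 CPM elsewhere, Ndufa4l2 peaks at 11.8 and 12.5 CPM in early mouse gastruloids, and Ndufb11b steps down from 17.0 CPM in naive cells to 1.28 and 0.745 CPM in late gastruloids.

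From early to late RA-gastruloids, 8 members fell and 5 rose, beside 25.7% and 26.3% of all genes, and NDUFA4L2 was the only DET (24.9% of all genes were). The subunit median was -0.09 against 0.00 over all genes. NDUFC2 rose from 11.4 and 14.4 CPM to 24.4 and 26.6 (0.97 ± 0.15 (SE), edgeR adjusted p = 2.3e-06). NDUFC1, another subunit of the membrane arm, fell from 42.8 and 43.7 to 27.8 and 24.4 (-0.72 ± 0.12 (SE), edgeR adjusted p = 1.1e-05). These genes with sister symbols hence moved in opposite directions. NDUFA11, of the membrane arm, rose by 0.51 and NDUFB11 by 0.48, while NDUFB8 (-0.52), NDUFB4 (-0.49) and NDUFB6 (-0.40) fell. In the core NDUFS1 and NDUFV1 fell (-0.33 and -0.27) and the other 5 were not called. NDUFAF8 and NDUFAF3, an early factor of the ubiquinone module, rose (0.65 and 0.55), and the other 6 assembly factors were not called. The calls of this comparison varied with the libraries: without either early replicate 4 members were higher and 4 lower, without late replicate 1 the split was 4 and 15, and without late replicate 2 it was 10 and 8. NDUFA11 went to 0.02 without late replicate 1 and NDUFV1 to -0.10 without late replicate 2, and neither of them nor NDUFS1 was called without an early replicate. NDUFV1 lost its call in 5 of 11 alternatives and NDUFA11 in 4. Of the mitochondrial subunits 5 were higher and 1 lower (median 0.55).

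In mouse the exit from the naive state moved the set less. From naive embryonic stem cells to EpiLCs 20 of 48 members fell and 8 rose, beside 32.2% and 33.8% of the 15003 genes tested, with a subunit median of -0.15 against 0.02 over all genes and 3 DETs (29.8% of all genes). Upper-quartile factors gave 15 lower and 10 higher. Of the 7 nuclear core genes 4 fell by small amounts and 1 rose. Ndufv1 had 264 and 292 CPM in naive cells and 240.1 and 229 in EpiLCs (-0.25 ± 0.06 (SE), edgeR adjusted p = 1.2e-04). Ndufs1 (-0.34) and Ndufv2 (-0.34) also fell, and Ndufs3, which has a near-identical copy, rose by 0.32, which was 0.20 and not called without naive replicate 1. Ndufs7 (-0.09) and Ndufs8 (0.05) did not pass the test. Ndufab1, whose human counterpart fell most among well-counted genes, rose from 13.3 and 14.4 to 19.7 and 17.1 CPM (0.37 ± 0.14 (SE), edgeR adjusted p = 0.014). This rise of Ndufab1 was not called with DESeq2 or without EpiLC replicate 1 or naive replicate 1 (0.30 and 0.32). The human and the mouse naive-to-primed changes were not tested against each other.

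Other genes departed in mouse. Ndufb4, the gene whose human counterpart rose, fell from 10.7 and 11.1 CPM to 5.17 and 4.87 in EpiLCs (-1.14 ± 0.19 (SE), edgeR adjusted p = 8.3e-07). It was called higher in early gastruloids than in EpiLCs (0.67 on the log2 scale). Of its transcript 49.8% has a near-identical copy. Ndufaf7 rose from 24.6 and 26.3 to 57.5 and 52.2 (1.09 ± 0.10 (SE), edgeR adjusted p = 1.3e-14) and was the only assembly factor among the DETs. In early gastruloids it had 30.5 and 35.7 CPM (-0.73 ± 0.09 (SE), edgeR adjusted p = 1.8e-10, against EpiLCs), so its level was highest in EpiLCs. Ndufaf5, which modifies NDUFS7, fell by 0.52 and Ndufaf3 rose by 0.57 on the log2 scale between naive cells and EpiLCs. Ndufb1, of the membrane arm, rose by 0.46 between the same groups and was lower by 0.48 in early gastruloids than in EpiLCs.

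From naive cells to early gastruloids 18 members fell and 6 rose, beside 30.0% and 33.0% of all genes, and 2 were DETs (23.0% of all genes). The split was 15 and 11 with upper-quartile factors and 15 and 10 with a length trend removed. In the core 6 of 7 genes fell and none rose (median -0.36), for example Ndufv1 (-0.44), with Ndufs3 at 0.05. The fall of Ndufs7 (-0.18) lost its call in 6 of 11 alternatives (-0.24 to -0.12 over all 11), among them those without early replicate 2 or naive replicate 2. From EpiLCs to early gastruloids 12 members rose and 12 fell, beside 32.3% and 30.5% of all genes, and 1 was a DET (20.9% of all genes). By role, of the core genes 4 fell and none rose (for example Ndufs8 -0.41, Ndufs3 -0.27 and Ndufv1 -0.19), of the 33 accessory genes 12 rose and 5 fell, and of the 8 assembly factors 3 fell and none rose. The share of accessory genes that rose and of assembly factors that fell lay near those of all genes, no difference between the roles was tested, and the split of all members was 8 higher and 13 lower with upper-quartile factors, 16 and 8 with a length trend removed, and 7 and 12 without EpiLC replicate 2. The small fall of Ndufs3 was not called without early replicate 1 (-0.20). The 5 mitochondrial subunits tested in mouse all rose, with medians of 1.24 from naive cells and 1.07 from EpiLCs. These mouse comparisons share libraries pairwise and are given side by side.

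From early to late mouse gastruloids 23 members fell and 8 rose, beside 38.5% and 37.6% of all genes, and 3 were DETs (39.2% of all genes). The median was -0.15 for the subunit genes and -0.36 for the assembly factors, against -0.03 over all genes. Without the filter on low counts 28 were lower and 5 higher, and with the length trend removed 18 were lower and 10 higher with a subunit median of -0.01. Ndufa1, on chromosome X as in human, had 125 and 125 CPM in early and 51.7 and 57.2 in late gastruloids (-1.21 ± 0.07 (SE), edgeR adjusted p = 4.1e-22), after 112 and 116 in naive cells and 105 and 95.7 in EpiLCs. The late gastruloids stood below every earlier library for this gene. In the core Ndufs1 (-0.54), Ndufv1 (-0.50) and Ndufs8 (-0.17) fell on the log2 scale, with none rising, and the fall of Ndufs8 lost its call in 6 of 11 alternatives (-0.26 to -0.01 over all 11), with the length trend removed, DESeq2 and median-of-ratios factors, and without early replicate 2 or either late replicate. Ndufa2 and Ndufb8 had the largest rises of subunit genes (0.52 and 0.38), that of Ndufb8 lost in 4 of 11 alternatives, among them those without early replicate 1 (0.18) or late replicate 2 (0.25). Of the assembly factors 5 fell, Ndufaf3 most, from 24.6 and 23.2 CPM to 13.4 and 13.3 (-0.85 ± 0.13 (SE), edgeR adjusted p = 2.3e-08). Ndufaf2 rose, from 23.3 and 24.9 to 42.4 and 37.8 (0.75 ± 0.10 (SE), edgeR adjusted p = 2.9e-09), while 65.6% of its annotated exon bases, though none of its canonical transcript, overlap another gene. Mitochondrial subunits rose slightly in 5 of 5 genes (median 0.24). Cardiomyocyte and fibroblast markers, given above, were higher in the late libraries, and their part in these changes was not tested.

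Ndufa4l2 was also highest in early and lowest in late mouse gastruloids, while from naive cells to EpiLCs it rose (0.92), unlike the human gene between naive and primed H9. That rise was not called with DESeq2 or without EpiLC replicate 2 (0.57). On chromosome 10 (127350836 to 127353023, coordinates of the deposited GRCm39 table), it had 2.65 and 2.87 CPM in naive cells and 4.14 and 5.86 in EpiLCs. It had 11.8 and 12.5 CPM in early and 0.233 and 0.298 in late gastruloids. The early libraries were again the highest, without overlap, but the starting level was well above the floor, so that the rise from EpiLCs was 2.26 times (95% counting interval 1.83 to 2.81), with a log2 fold change of 1.2 ± 0.18 (SE), edgeR adjusted p = 8.3e-08. The early level was 46.0 times the late one (17.8 to 170) on 2 counts in each late library (-5.47 ± 0.38 (SE), edgeR adjusted p = 2.8e-19). Of 11 other HIF target genes 4 rose and 4 fell from EpiLCs to early gastruloids, with a median of -0.24, and 6 fell and 2 rose from early to late with a median of -0.85.

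Ndufb11b, a gene of chromosome 15 (81864741 to 81865764) named after the X-linked Ndufb11, was present in the mouse table alone. It was highest in naive cells, followed by EpiLCs, early gastruloids and late gastruloids. It had 17.0 and 17.0 CPM in naive cells and 8.72 and 7.30 in EpiLCs (-1.12 ± 0.17 (SE), edgeR adjusted p = 5.4e-08). It had 4.54 and 5.36 CPM in early gastruloids (-0.68 ± 0.19 (SE), edgeR adjusted p = 0.0017, from EpiLCs) and 1.28 and 0.745 in late ones (-2.20 ± 0.34 (SE), edgeR adjusted p = 4.8e-08, from early). Without early replicate 1 the step from EpiLCs was not called (-0.54). No neighbouring groups overlapped, and the early level was 4.62 times the late one (95% counting interval 2.76 to 8.29). Ndufb11 itself had 167 and 174 CPM in naive cells, 180.4 and 157 in EpiLCs, 156 and 167 in early and 112 and 114 in late gastruloids, and was called only in the last step (-0.52).

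**Figure D4:**
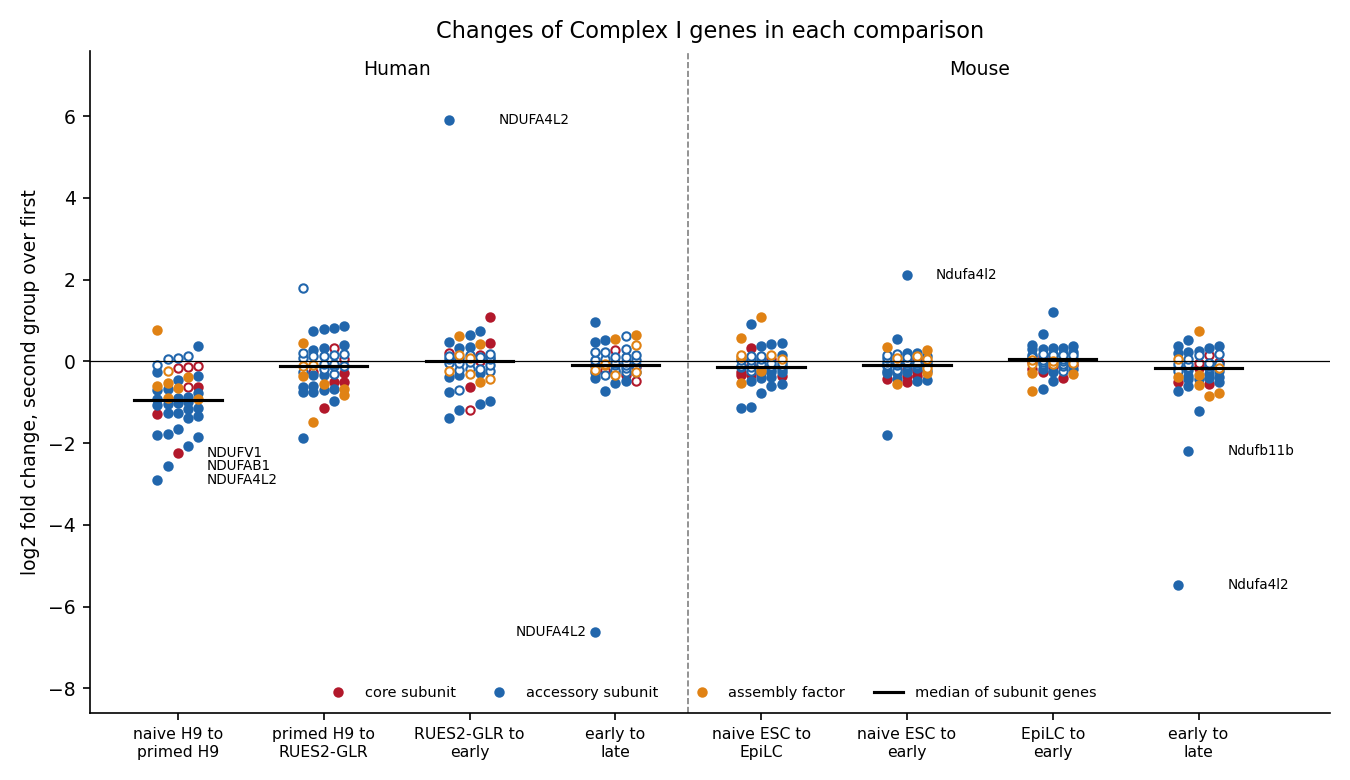
Log2 fold changes of all tested members in the 8 within-species comparisons, with filled symbols for called and open symbols for not called genes and a black bar for the subunit median. The bar lies at -0.96 from naive to primed H9 and between -0.15 and 0.06 in the other 7 comparisons, and the labelled points far from it are NDUFA4L2, Ndufa4l2, NDUFAB1, NDUFV1 and Ndufb11b.

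Whether a change differed between the species was tested directly for 47 members matched by symbol, as the human log2 change minus the mouse one. The joint fit of both species had its own scaling, so a difference is not exactly the gap between the within-species changes printed. The matched members include NDUFA7, on 0 to 8 human counts a library. It was not called from primed to early (1.80 ± 1.26 (SE)) or from early to late (-1.08 ± 0.94 (SE)). From the primed state (RUES2-GLR or EpiLC) to early gastruloids the change was higher in human for 8 members and lower for 14. Of the 13929 matched genes, 27.2% were higher and 28.4% lower. The subunit median of the difference was -0.15 against -0.001 over all matched genes. NDUFA3 fell in human (-1.38) and rose in mouse (0.31), a difference of -1.80 ± 0.19 (SE), edgeR adjusted p = 2.3e-10. NDUFA4L2 rose in both and by more in human, with a difference of 4.61 ± 0.51 (SE), edgeR adjusted p = 9.6e-10. NDUFB9, of the membrane arm, fell in human (-0.97) and was not called in mouse (0.15), a difference of -1.22 ± 0.14 (SE), edgeR adjusted p = 1.5e-09. NDUFV1 had a difference in the other direction (1.14 ± 0.14 (SE), edgeR adjusted p = 4.9e-09), rising in human and falling in mouse. The 14 include NDUFV2 and NDUFA13, which rest on few reads. The RUES2-GLR libraries with their high mitochondrial share are the starting point of every human value here, and the part of that share was not tested. RA-gastruloids were grown from RUES2-GLR cells, while mouse gastruloids were not made from EpiLCs. Species and this difference in the starting group cannot be told apart.

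From early to late gastruloids the change was higher in human for 17 members and lower for 4, beside 30.7% and 28.7% of matched genes. The subunit median of the difference was 0.21 against 0.05 over all matched genes. With median-of-ratios factors the split was 14 and 6 and the medians were 0.10 and -0.05, so the values moved with the scaling. NDUFC2 rose in human and fell in mouse (-0.37), a difference of 1.49 ± 0.17 (SE), edgeR adjusted p = 1.5e-09. NDUFB11 also rose in human and fell in mouse (1.14 ± 0.13 (SE), edgeR adjusted p = 2.3e-09). For NDUFA1 the human change was -0.26 and not called, and the difference was 1.09 ± 0.14 (SE), edgeR adjusted p = 2.2e-08. NDUFB11 and NDUFA1 lie on chromosome X in both species. The assembly factors parted in the same direction, with 5 of 8 higher in human. NDUFAF3 rose in human and fell in mouse, a difference of 1.54 ± 0.21 (SE), edgeR adjusted p = 5.5e-08, and NDUFAF5, NDUFAF6, NDUFAF7 and NDUFAF8 had differences between 0.50 and 0.93. NDUFAF2 went the other way (-0.93 ± 0.19 (SE), edgeR adjusted p = 6.5e-05). NDUFA4L2, with its large falls in both species, had no called difference. The stages are matched by name: 24 h to 120 h in human and day 3 to day 6 in mouse, under different protocols, so species, protocol and interval cannot be told apart.

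**Figure D5:**
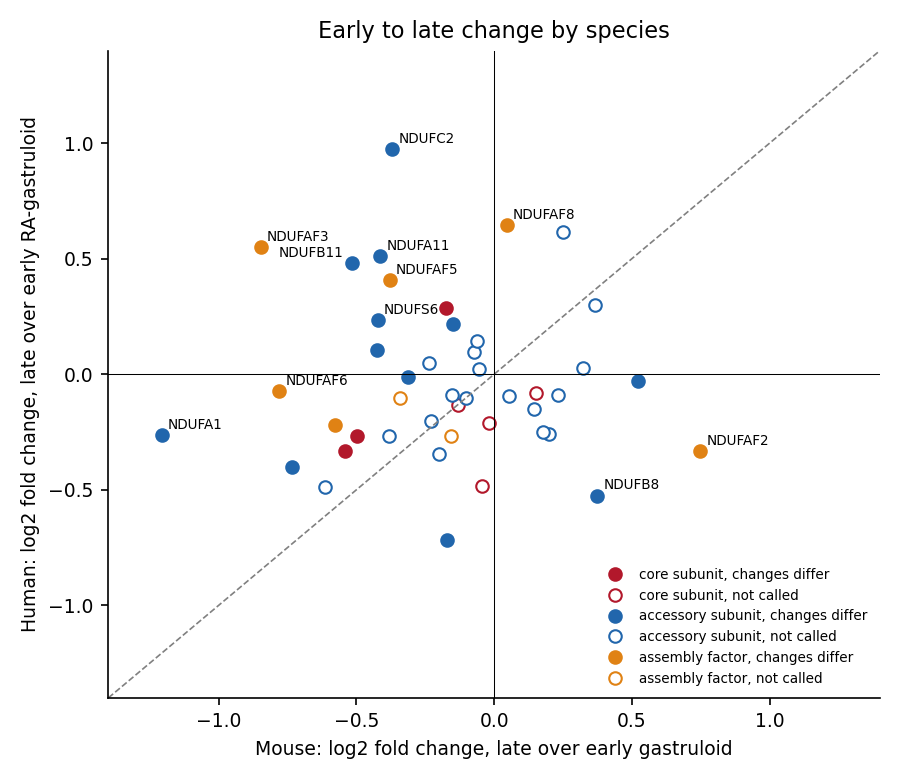
Early-to-late log2 fold change in mouse (x axis) against human (y axis) for 45 matched members. NDUFA4L2 is left out, and so is NDUFA7, which was not tested within human. Symbols are filled where the species difference had an edgeR adjusted p under 0.05, and the dashed line marks equal change. Of the filled points 17 lie above the line and 4 below it, and NDUFC2, NDUFAF3, NDUFB11, NDUFA1 and NDUFA11 lie farthest above.

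Levels of the assembly factors over the whole course are given here as a description, with no test. In human their mean log2 CPM was 4.86 and 4.88 in naive H9, 4.45 and 4.43 in primed H9, 4.01 and 3.93 in RUES2-GLR, and between 3.91 and 4.04 in the RA-gastruloids. The naive libraries were thus the highest and primed H9 the next, with RUES2-GLR and the RA-gastruloids overlapping. NDUFAF1 went from 34.6 and 32.1 CPM in naive H9 through 21.1 and 21.1 and 7.29 and 7.97 in the primed lines to 11.4 and 11.5 and 9.89 and 11.8 in early and late RA-gastruloids, and RUES2-GLR held its lowest libraries. NDUFAF2 ran against it, with 9.82 and 9.64 CPM in naive H9, 24.3 and 19.4 in RUES2-GLR and 15.2 and 15.3 in late RA-gastruloids, so the naive libraries were its lowest. In mouse the mean of the assembly factors was highest in EpiLCs (4.87 and 4.80) and lowest in late gastruloids (4.34 and 4.38), with 4.62 and 4.68 in naive cells and 4.62 and 4.67 in early gastruloids. Ndufaf7, itself a gene of that mean, had 57.5 and 52.2 CPM in EpiLCs and between 21.8 and 35.7 elsewhere, so its own peak enters that order.

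Levels between genes were compared as TPM, which scale counts by the exon length of the gene in the deposited tables and then to a common total. On that scale the members spanned a wide range. NDUFS5 had the highest mean over the human groups (1426 TPM) and NDUFB7 the next (831 TPM), both small accessory subunits, and Ndufa1 had the highest in mouse (811 TPM). The median subunit gene stood at 1.96 to 3.91 times the median assembly factor in the 5 human groups and 3.26 to 4.67 times in the 4 mouse groups, so the median assembly factor lay below the median subunit in every group. With lengths of the canonical transcript the ratios were 4.34 to 8.03 and 3.01 to 6.93. The top members also depended on the length: on canonical lengths Ndufa4 was highest in all 4 mouse groups (925 to 1082 TPM). In human NDUFAB1 was then highest in naive H9 (1339 TPM) and NDUFS5 in the other groups. TPM count the mitochondrial genes in the total, so those of RUES2-GLR are lower by its larger mitochondrial share, and the order carries no test.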

How the data were processed

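Gene counts and a gene length per species were deposited by the authors, whose sequencing of poly(A) RNA (NextSeq) was followed, per the study's methods and the submitters' processing notes, by bcl2fastq 2.20, Trimmomatic 0.39, STAR (GRCh38 or GRCm39) and featureCounts at default settings, which drop reads that map to several places or genes and ignore strand. The version of STAR and the annotation release are not given in the sources used here. All count columns were mapped to samples by name. Lengths were used for TPM and for the removal of a trend over length.

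Here edgeR 4.0.16 (R 4.3.3) was fitted to all samples of a species with TMM factors and filterByExpr, using the quasi-likelihood test with Benjamini-Hochberg adjustment over 18300 human or 15003 mouse genes. A gene was called at an adjusted p under 0.05 and was a DET above 2-fold. Species differences were tested as an interaction in 1 fit of all 18 samples over 13929 genes matched by symbol. CPM were counts scaled to the TMM-normalised library total, and ratios of rare counts carry exact 95% counting intervals, with 3 counts as the floor. Library totals of 3681739 to 38771193 set the precision of rare genes. On simulated counts the test recovered 45 of 100 genes changed by 0.5 (log2) and 100 of 100 changed by 1.5 in the human comparison of RUES2-GLR with early RA-gastruloids, and 85 of 100 and 100 of 100 in the mouse comparison of EpiLCs with early gastruloids. It made 7 false calls in each of these simulations. The changed genes were drawn from well-counted genes and all genes shared 1 dispersion, so the rates do not cover thinly counted members such as NDUFA4L2. Overlapping and near-identical sequence came from the annotation and BLAST 2.17.0 (at least 98% identity over 50 bases), and summaries from Python 3.11.15.

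The members, gene lists and tests were chosen with earlier results of these data known. 1 member is not reported here by name, though group counts and medians include it. The text names the nuclear core genes, members called above 2-fold, in each comparison the called subunits and assembly factors with the largest rises and falls, members more than 1 from the subunit median, NDUFA4, NDUFA4L2, NDUFAB1 and NDUFC2-KCTD14, the 3 members of smallest adjusted p in each interaction, and at most 3 genes of each other list above 2-fold. Other members were named after their values were seen, and not every change of a named gene is printed. DESeq2 1.42.0, other scalings (median-of-ratios and upper-quartile factors), no low-count filter, removal of a trend over length, fits to the compared groups alone, a replicate block and leaving out each library were tried as alternatives, with TPM on canonical lengths and the subunits without shared bases added after seeing the data.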

Additional observations from a re-analysis of the deposited data

Results flagged for a closer look

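All values here are species differences, taken as the human log2 change minus the mouse log2 change and tested as an interaction with edgeR's quasi-likelihood F-test, Benjamini-Hochberg adjusted over all matched genes.

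From the primed state to early gastruloids the change of 8 of 47 members was higher and that of 14 lower in human, beside 27.2% and 28.4% of matched genes. The 3 members of smallest adjusted p were NDUFA3 (-1.80), NDUFA4L2 (4.61) and NDUFB9 (-1.22). Of these NDUFA4L2 rose in both species, and the human starting group is RUES2-GLR, where it rested on 5 counts in all.

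From early to late gastruloids the change of 17 of 47 members was higher and that of 4 lower in human, beside 30.7% and 28.7% of matched genes. The subunit median was 0.21 against 0.05 over all matched genes. The 3 members of smallest adjusted p were NDUFC2 (1.49), NDUFB11 (1.14) and NDUFA1 (1.09), all of them subunits of the membrane arm.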

How the results depend on the processing

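Over the 8 comparisons and 2 species differences, 110 recomputed counts of called members stayed within 1.5 times the reported one and 6 did not. The 6 lay in primed H9 to RUES2-GLR, where 17 to 23 members were called (27 with all libraries) when 1 library was left out, human early to late gastruloids (13 reported), where 8 to 19 were called with 1 library left out, 8 without the low-count filter and 20 with the length trend removed, and mouse EpiLC to early gastruloids, where DESeq2 called 15 in place of 24. With 1 library left out the lone sample of its group is assumed to vary like the other groups and fewer samples enter the fit. The cause of the other shifts was not tested. NDUFA5 from naive to primed H9 reversed to -0.42 with the length trend removed. Among the recomputed changes of named members 1412 stayed on the same side of the threshold without a called change of direction, 93 lost the call, 26 gained one and 1 reversed. From naive to primed H9, 33 to 39 members were lower and 1 to 5 higher, with a subunit median between -1.13 and -0.82, in all 11 alternatives. Replicate numbers are shared between groups as numbers only, since deviations of same-numbered libraries correlated between -0.11 and 0.07. With the replicate block 34 members were lower and 2 higher from naive to primed H9, 5 were higher and 6 lower from early to late RA-gastruloids, and 8 were higher and 23 lower from early to late mouse gastruloids. Its calls in the other comparisons were 27, 18, 26, 23 and 22, and 22 and 21 for the species differences. Depth limits NDUFA4L2 outside early RA-gastruloids, NDUFV2, NDUFA13 and NDUFA7, whose human gene was tested in the species differences only.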

Other observations

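Genes of the other respiratory complexes and of mitochondrial biogenesis were read in the same fits. Over all genes tested, 37.7% were lower and 37.6% higher from naive to primed H9, and 33.5% and 25.0% from primed H9 to RUES2-GLR. In mouse 32.2% of all genes were lower from naive cells to EpiLCs and 32.3% higher from EpiLCs to early gastruloids. From early to late mouse gastruloids 38.5% were lower and 37.6% higher. Complex IV, which takes the electrons to oxygen, had 9 of 10 tested genes lower from naive to primed H9 (median log2 fold change -1.49), and in mouse 8 lower of 10 from naive cells to EpiLCs (-0.27), 8 higher from EpiLCs to early gastruloids (0.22) and 9 lower and 1 higher from early to late (-0.41). Complex II had 5 of 8 genes lower and 2 higher from naive to primed H9. Of 13 regulators of mitochondrial genes, 6 were lower and 3 higher in primed than in naive H9, ESRRA (oestrogen-related receptor alpha, -2.10), PPARGC1B (its coactivator, -1.80) and TFB2M (a mitochondrial transcription factor, -1.06) falling most. From primed H9 to RUES2-GLR 9 of the 13 were lower and none higher, among them ESRRA (-1.12), PPRC1 (-1.17) and PPARGC1B (-1.10), while NRF1 rose from RUES2-GLR to early RA-gastruloids (1.16). In mouse Esrra was higher in EpiLCs than in naive cells (0.51). NUBPL, which delivers iron-sulphur clusters to Complex I, rose from RUES2-GLR to early RA-gastruloids (1.21) and Nubpl fell from early to late mouse gastruloids (-1.18). These lists were described by counts and medians only. From primed H9 to RUES2-GLR the median of all genes was -0.12 and moved with the scaling, so smaller changes there depend on it.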
